A study of Homo sapiens with 5 samples.

Results

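The genes described here are 9 human metallothioneins (MT1A, MT1E, MT1F, MT1G, MT1H, MT1M, MT1X, MT2A and MT3) and the zinc exporter SLC30A1. They were chosen by symbol and make up 10 of the 64837 entries counted in each library. NCI-H209 is an established human small-cell lung cancer (SCLC) line, and HBMECs are human brain microvascular endothelial cells, which line the vessels of the blood-brain barrier. The control group held 3 libraries of untreated NCI-H209 cells. The co-cultured group held 2 libraries of NCI-H209 cells kept for 24 h in a Transwell system, in which HBMECs shared the medium with the tumor cells across a porous membrane. All libraries came from a single cell line grown in RPMI-1640 medium with fetal bovine serum, and no gene was altered in either group. The medium of the HBMECs also held Nu-serum, and the paper does not state which medium was used during co-culture. A difference in medium between the groups thus cannot be told apart from the presence of HBMECs. The labels do not say whether the libraries of a group came from separate cultures, so the p-values measure only the spread between these libraries, which may be technical.

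Metallothioneins are short cytosolic proteins that bind zinc and copper ions through clusters of cysteine residues. MT2A and the MT1 genes are induced in most tissues by zinc, other metals and glucocorticoids, with the zinc-sensing factor MTF1 binding metal response elements in their promoters. MT3 is the form best known from neurons, where it is far less inducible by metals. SLC30A1 sits in the plasma membrane, moves zinc out of the cell, and is itself a target of MTF1.

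The 9 metallothioneins lie in 1 cluster on chromosome 16, within 95.1 kb (GRCh38, chr16:56589074-56684196), in the order MT3, MT2A, MT1E, MT1M, MT1A, MT1F, MT1G, MT1H, MT1X. MT1G is the 1 member of the cluster read from the minus strand. SLC30A1 is on the minus strand of chromosome 1 (chr1:211571568-211578742). The spliced coding sequences of MT2A and MT1G are shown, because MT2A is the most abundant metallothionein and MT1G had the largest fall. They were read from GENCODE 29 transcripts, run 5′ to 3′ with the stop codon included, and have the codons for cysteine in capitals.
MT2A (chr16:56608656-56609354, plus strand): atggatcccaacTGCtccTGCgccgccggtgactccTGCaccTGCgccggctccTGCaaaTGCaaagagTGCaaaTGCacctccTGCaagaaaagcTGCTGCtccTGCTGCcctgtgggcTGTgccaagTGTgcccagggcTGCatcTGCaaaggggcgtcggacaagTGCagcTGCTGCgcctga
MT1G (chr16:56666879-56667993, minus strand): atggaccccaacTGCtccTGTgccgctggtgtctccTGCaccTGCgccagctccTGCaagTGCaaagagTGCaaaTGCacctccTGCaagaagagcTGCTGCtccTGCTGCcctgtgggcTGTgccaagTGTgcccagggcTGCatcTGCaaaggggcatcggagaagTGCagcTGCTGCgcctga
Each of the 8 MT1 and MT2A genes had 20 cysteine codons, 32.8% of its 61 codons. SLC30A1, a membrane protein with 507 codons, had 18 cysteine codons, a share of 3.55%. The coding sequences of the MT1 genes and MT2A were 88.7% to 95.2% identical over their 28 pairs. This likeness limits how far reads can be assigned. Of all stretches of 50 bases in the principal coding transcript of each member, 45.1% of those of MT1X, 20.4% of those of MT1H and 20.2% of those of MT1G also occurred in another gene, against 3.59% to 7.05% for MT1A, MT1E, MT1F, MT1M and MT2A. No such stretch of MT3 or SLC30A1 was found elsewhere. For stretches of 100 bases these shares were 19.1% for MT1X, 3.36% for MT1H and 0% for the other members. Those of MT1X at this length were shared with AC026461.1, a gene that overlaps it on the same strand. A read that maps to several places is not counted, so the levels of MT1X, MT1H and MT1G are less certain where the reads are short. Part of the share of MT1X comes from its overlap with AC026461.1 and not from likeness. Reads of that overlap are counted on neither gene, whatever their length.

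Reads counted on genes ran from 15457071 to 19157348 per library. Before normalization, 3 counts thus corresponded to 0.157 to 0.194 per 1e+06 of these reads. CPM stands for counts scaled to a library size of 1e+06 after normalization. The unmapped share was 8.13% to 8.48% in control and 15.9% to 16.8% in co-cultured cells, whereas reads mapping to several places, which are not counted on genes, made up 7.05% to 7.75% of all 5. The part of the unmapped share in the results was not tested. The neuroendocrine identity of the line was visible in NCAM1, a neural cell adhesion molecule, with a control mean of 497.2 CPM (SD 39.9, n = 3) and a co-cultured mean of 644.3 CPM (SD 6.19, n = 2), and in SYP, a protein of synaptic vesicles, with means of 59.5 and 88.2 CPM. Of 12 neuroendocrine genes, 11 were tested, 3 rose (27.3%, beside 18.4% of all genes tested) and 2 fell (18.2%, beside 15.0%). Those that fell were the Notch ligand DLL3, by a log2 fold change of -0.35 (adjusted p = 0.0248), and DDC, an enzyme of amine synthesis, by -0.58 (adjusted p = 0.0286). The granule protein CHGA had at most 1 count in a library. Of 18 endothelial markers, 8 never exceeded 3 counts, and the summed level of the list was 10.1 to 19.6 CPM in control and 13.6 CPM in both co-cultured libraries. The defining markers were not at 0, and their levels differed. The adhesion molecule PECAM1 was low, with 14, 10 and 3 counts in control and 18 and 11 counts in co-cultured cells. VWF, also on the list, was more abundant, at a mean of 5.7 CPM without co-culture and 5.35 CPM with it. Its log2 fold change was -0.09 (adjusted p = 0.841). Of the 8 markers tested, 1 rose (12.5%, beside 18.4% of all genes tested). This was ESAM, by 2.14 on the log2 scale (adjusted p = 0.00666), from 0.229 to 1.04 CPM. The part of endothelial RNA in the results was not tested.

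Co-cultured NCI-H209 cells held less RNA of 3 inducible metallothioneins and more of MT3 and SLC30A1. MT2A, MT1F and MT1G fell, by 1.61-fold, 1.69-fold and 2.70-fold, whereas MT3 rose 3.33-fold and SLC30A1 rose 1.32-fold. MT1E and MT1X did not pass the test, and MT1A, MT1H and MT1M had too few counts to be tested. Of the 10 members, 7 were tested. Of these 7, 2 (28.6%) had an adjusted p under 0.05 with a rise and 3 (42.9%) with a fall. The test was the quasi-likelihood test of edgeR, Benjamini-Hochberg adjusted over 20360 genes. Over all genes tested, 18.4% were higher and 15.0% were lower at this threshold, 3750 and 3059 genes, and with upper-quartile normalization the split was 3076 higher and 3929 lower. The median log2 fold change was -0.72 over the 6 metallothioneins tested and -0.03 over all genes tested. By the DEG criterion of the study, read as a change of more than 1 on the log2 scale in either direction and p under 0.05 before adjustment, MT3 was upregulated and MT1G downregulated, where 5.44% of all genes tested were upregulated and 5.01% downregulated. The libraries of both groups did not overlap for 6 of the 7 members tested, 2 higher and 4 lower in co-cultured cells, against 29.4% and 30.0% of all genes tested. In bulk RNA, fewer cells with a transcript and less of it per cell cannot be told apart.

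**Figure D1:**
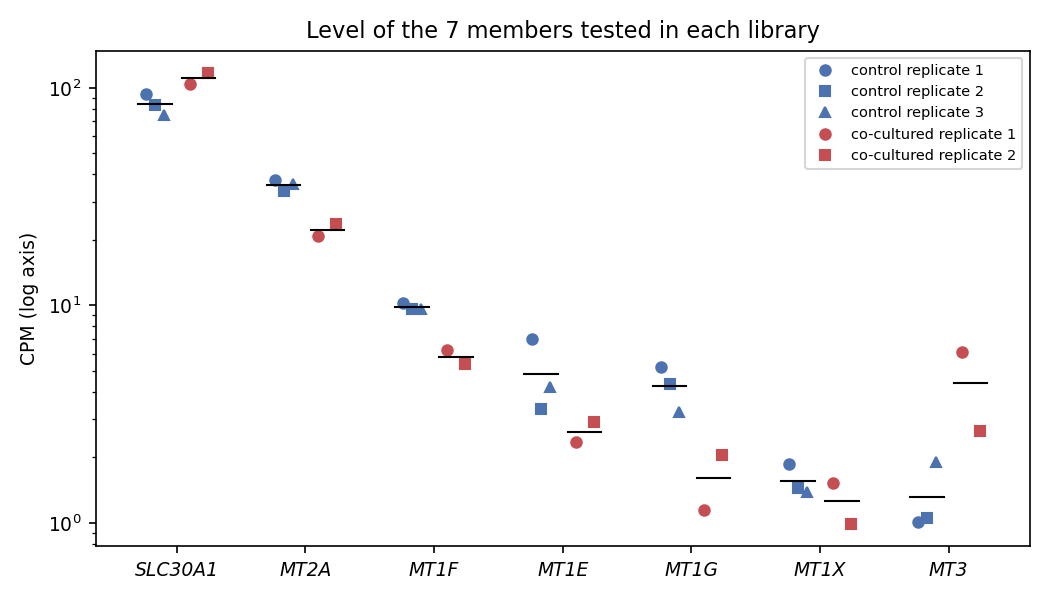
Level of the 7 members tested, in CPM on a log axis, with 1 point per library, control and co-cultured side by side. The control points of MT2A, MT1F, MT1G and MT1E all sit above the co-cultured points, those of MT3 and SLC30A1 all sit below them, and those of MT1X overlap.

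MT2A, the main metallothionein of most tissues, was at 37.6, 33.4 and 36.1 CPM in the control libraries and at 20.8 and 23.5 CPM in the co-cultured libraries. Every control library was above both co-cultured libraries, and the replicates of each group lay close together. The control mean was 35.7 ± 2.12 CPM (SD, n = 3) and the co-cultured mean 22.2 ± 1.90 CPM (SD, n = 2). The log2 fold change was -0.69, with a standard error of 0.11 and an adjusted p of 0.00135. MT1F, a metal-induced member of the MT1 group, was at 10.2, 9.62 and 9.58 CPM in control and at 6.23 and 5.35 CPM in co-cultured cells. Its groups also lay apart, and the log2 fold change was -0.75 with a standard error of 0.15 and an adjusted p of 0.00537. When co-cultured replicate 2 was left out, the log2 fold change of MT1F was -0.65 and its adjusted p was 0.0679.

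MT1G, a member of the MT1 group that is itself strongly metal-induced, had 98, 79 and 63 counts in control and 21 and 31 counts in co-cultured cells. In CPM these were 5.21, 4.37 and 3.23 against 1.15 and 2.05. The control libraries varied more among themselves than for MT2A, but the lowest of them was still above the higher co-cultured library. The log2 fold change was -1.43 (standard error 0.32, adjusted p = 0.00864), the largest fall among the members tested. Without co-cultured replicate 1 it was -1.05, with an adjusted p of 0.106.

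MT1E, another metal-induced member, was at 7.02, 3.32 and 4.20 CPM in control and at 2.35 and 2.91 CPM after co-culture. All control values lay above both co-cultured values, but control replicate 1 was far above the other control libraries, and the log2 fold change of -0.89 (standard error 0.33) had an adjusted p of 0.0664. Its adjusted p was under 0.05 with upper-quartile normalization, under the laxest filter on low counts (1 count anywhere), and without control replicate 2, at 0.0445, 0.00283 and 0.0327. Without control replicate 1 the log2 fold change was -0.52 (adjusted p = 0.0825), and without co-cultured replicate 1 or 2 the adjusted p was 0.317 or 0.172. MT1X, expressed at a low level, was at 1.86, 1.44 and 1.38 CPM in control and at 1.53 and 0.991 CPM in co-cultured cells. Here the groups overlapped, and the log2 fold change was -0.29, with an adjusted p of 0.526 and an interval of 2 standard errors from -0.94 to 0.36, which includes the change seen for MT2A. For MT1X, 18.1% of its exonic bases also belong to AC026461.1, a gene on the same strand with 0 counts in every library, and the reads of such bases are counted on neither gene.

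The remaining MT1 members were near the floor of 3 counts. MT1H had 14, 8 and 9 counts in control and 0 and 3 after co-culture. No control library was as low as either of these, and the ratio of control over co-cultured counts per total was 6.39, with an exact 95% interval of 1.99 to 32.7 that covers counting error only. MT1M had 1, 0 and 1 counts in control and 2 and 0 counts in co-cultured cells, and MT1A had 1 count, in control replicate 2. No difference could be detected for these last 2 genes at this depth. The other 12 metallothionein entries of the annotation, pseudogenes among them, were not tested either, and 10 of them never exceeded 3 counts.

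MT3 went the other way. It had 19, 19 and 37 counts in control and 112 and 40 counts in co-cultured cells, or 1.01, 1.05 and 1.89 CPM against 6.12 and 2.64 CPM. Both co-cultured libraries were above every control library, but co-cultured replicate 1 was far above co-cultured replicate 2, which lay nearer to control replicate 3. The log2 fold change was 1.74 (standard error 0.40, adjusted p = 0.00958). Without co-cultured replicate 1 it was 1.0, with an adjusted p of 0.176, and without co-cultured replicate 2 it was 2.21. The size of the rise, and whether it passed the test, thus rested on co-cultured replicate 1.

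**Figure D2:**
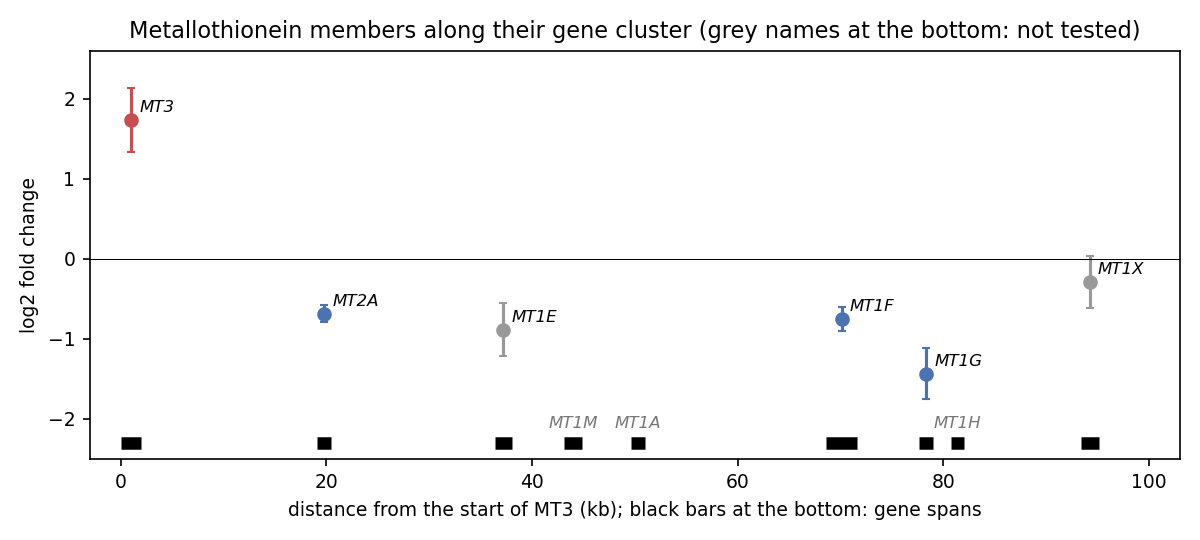
Log2 fold change between co-cultured and control cells, positive where co-cultured is higher, as points with bars of 1 standard error against the distance from the start of MT3 in kb, with black bars for the gene spans of the 9 metallothioneins, red for higher, blue for lower and grey for not past the threshold. MT3, at one end of the cluster, is at 1.74, and the 5 other members tested are between -1.43 and -0.29.

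The metallothionein pool was smaller in co-cultured cells, and MT3 made up more of it. Summed over the 9 genes, the level was 63.7, 53.7 and 56.8 CPM in control and 38.3 and 37.7 CPM in co-cultured cells, 1.53-fold lower. Sums and shares are given as descriptions, with no test. The sum of the MT1 genes and MT2A was 1.69-fold lower, and that of the MT1 genes alone was 1.84-fold lower, at 21.1 ± 3.48 CPM (SD, n = 3) against 11.4 ± 0.0886 CPM (SD, n = 2). MT2A provided most of the pool in both groups, with 59.0%, 62.2% and 63.4% of metallothionein counts in control libraries, and with 54.4% and 62.5% after co-culture. Its shares overlapped between the groups. MT3 provided 1.59%, 1.96% and 3.33% of the pool in control and 16.0% and 7.02% after co-culture. The exact 95% intervals of the MT3 share, which cover counting error only, ended at 4.57% in the highest control library and began at 5.06% in the lower co-cultured library.

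**Figure D3:**
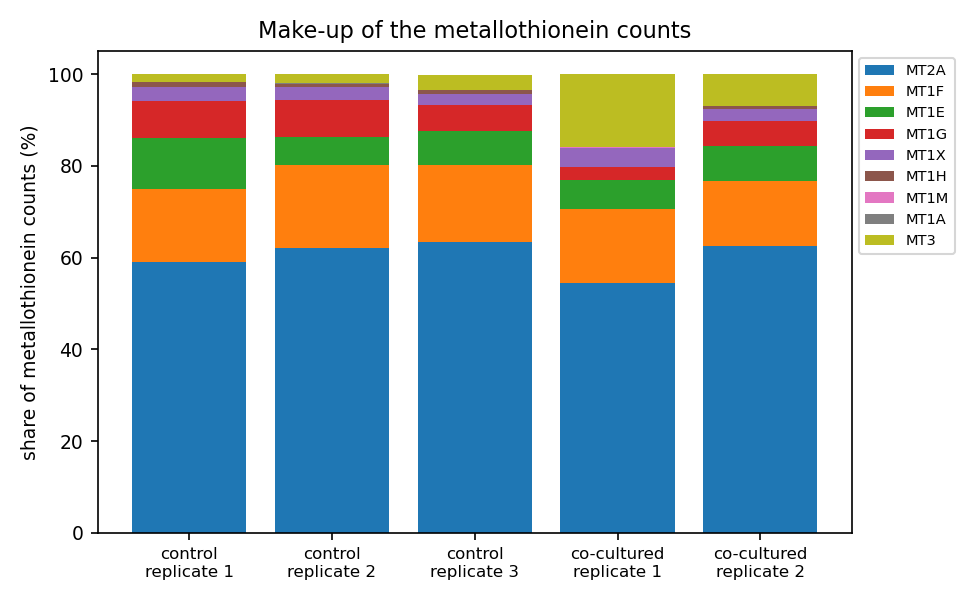
Share of each metallothionein in the counts of all 9, in percent, as stacked bars with 1 bar per library. MT2A takes 54.4% to 63.4% of every bar, and the share of MT3 is 1.59% to 3.33% in control and 7.02% to 16.0% in co-cultured cells.

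SLC30A1 was at 93.6, 82.9 and 74.9 CPM in control and at 104.1 and 116.6 CPM in co-cultured cells. Both co-cultured libraries were above every control library, by a margin of the same order as the spread within control. The log2 fold change was 0.40 (standard error 0.10, adjusted p = 0.0173). Leaving out either co-cultured library ended this call, with a log2 fold change of 0.49 and an adjusted p of 0.0559 without co-cultured replicate 1, and of 0.32 and 0.179 without co-cultured replicate 2. Because the exporter was higher while MT2A was lower, their ratio moved further than either gene. The ratio of SLC30A1 to MT2A counts was 2.49, 2.48 and 2.08 in control and 5.00 and 4.96 after co-culture, a log2 difference of 1.09. Such a ratio does not depend on library scaling. An exact permutation test, two-sided, gave p = 0.2, which is the smallest that 3 libraries against 2 allow. Per MT2A count, MT3 was also higher in every co-cultured library and MT1G lower (both p = 0.2 by the same exact test). The MT3 ratio was at most 5.26% in control and at least 11.2% after co-culture. That of MT1G was 13.9%, 13.1% and 8.95% in control and 5.51% and 8.71% after co-culture, so its groups nearly met. The ratio of MT1X to MT2A overlapped between the groups (p = 0.6 by the same exact test).

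Per kilobase of all exons of a gene, the order of levels in control was MT2A (27.5 CPM per kb), SLC30A1 (15.3), MT1G (5.69), MT1F (5.19), MT1E (4.61), MT1X (0.880), MT1H (0.760), MT3 (0.718), MT1A (0.0465) and MT1M (0.0369). MT2A was above SLC30A1 in every control library, and MT1G, MT1F and MT1E overlapped with each other, as did MT1X, MT1H and MT3. In co-cultured cells SLC30A1 stood at 19.0 and 21.3 CPM per kb and MT2A at 16.0 and 18.1, and MT3 stood at 3.33 and 1.44, a range that took in both libraries of MT1F, MT1E and MT1G. The order depended on the length used. Per kilobase of the principal coding transcript, an alternative chosen after seeing the data, MT2A was above SLC30A1 in both groups, with means of 45.4 and 15.3 CPM per kb in control and 28.2 and 20.2 in co-cultured cells. With this length MT1F, at 14.2 CPM per kb in control, overlapped with SLC30A1 and stood above MT1G at 10.5, and MT1X, at 3.47, had a higher mean than MT3 at 2.32 and MT1H at 1.38.

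Metal response elements were searched as TGCACNC and TGCGCNC, on both strands, in the 250 bases before the RefSeq start (GRCh38.p14) of the 4 members found in the promoter table, MT1H, MT1X, MT2A and SLC30A1. The promoters of MT1H and SLC30A1 are shown because neither overlaps an exon of its gene in GENCODE 29, with every match in capitals and both read in the direction of the gene.
MT1H (chr16:56669564-56669813, plus strand): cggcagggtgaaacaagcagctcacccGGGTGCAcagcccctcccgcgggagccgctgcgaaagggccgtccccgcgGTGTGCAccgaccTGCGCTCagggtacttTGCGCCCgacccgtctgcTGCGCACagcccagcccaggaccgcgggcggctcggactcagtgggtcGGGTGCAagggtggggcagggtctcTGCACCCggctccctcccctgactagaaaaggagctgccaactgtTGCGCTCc
SLC30A1 (chr1:211579162-211579411, minus strand): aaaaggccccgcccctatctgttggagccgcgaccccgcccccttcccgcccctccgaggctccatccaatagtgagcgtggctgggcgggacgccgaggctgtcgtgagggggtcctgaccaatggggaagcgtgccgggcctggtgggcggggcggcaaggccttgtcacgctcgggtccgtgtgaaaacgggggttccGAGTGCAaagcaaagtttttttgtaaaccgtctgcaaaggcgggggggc
MT1H had 8 matches, MT2A 7, MT1X 4 and SLC30A1 1. The windows are not alike: that of MT1H adjoins the gene as GENCODE 29 draws it, those of MT2A and MT1X overlap first exons in GENCODE 29, and that of SLC30A1 lies some distance upstream of the GENCODE 29 start, so their numbers of matches are not compared. The 7 matches of MT2A were 5 of TGCACNC and 2 of TGCGCNC, the nearest ending 2 bases and the next 48 bases before the start. Among the 35116 promoters of the same length, 24.8% held at least 1 match, 0.37% at least 4 and 0.0313% at least 7. The matches describe these letters only, and occupancy by MTF1 was not measured. MT2A, which fell, and MT1X, which did not pass the test, both held several matches.

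MTF1 itself, the factor that reads zinc and binds these elements, was at 70.8, 70.0 and 70.9 CPM in control and at 72.7 and 76.2 CPM in co-cultured cells. The groups lay apart by less than 2 CPM at their nearest libraries, and the log2 fold change was 0.08 (standard error 0.07, adjusted p = 0.451), or -0.001 with upper-quartile normalization. A list of MTF1 and its targets outside the metallothioneins and SLC30A1 held 6 genes. Of these, 1 rose (16.7%, beside 18.4% of all genes tested) and 1 fell (16.7%, beside 15.0%). The median log2 change was 0.11, over a list that includes MTF1 itself and a gene it represses, so its sign does not describe MTF1 activity. The gene that rose was GCLC, a subunit of the enzyme that starts glutathione synthesis, by 0.48 on the log2 scale (adjusted p = 0.00924). The gene that fell was SELENOH, a selenoprotein of the nucleus, with a log2 fold change of -0.40 (adjusted p = 0.0407). SLC39A10, a zinc importer that MTF1 represses, did not pass the test, at 0.25 on the log2 scale (adjusted p = 0.0663). Nor did SELENOW, at -0.11 (adjusted p = 0.346).

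Among the zinc transporters, every gene that passed the test was higher in co-cultured cells. The SLC30A family carries zinc out of the cytosol, into vesicles or out of the cell, and the SLC39A family carries it into the cytosol. Of the 10 SLC30A genes listed, 8 were tested, with a median log2 change of 0.18. Of these, none was lower (beside 15.0% of all genes tested) and 3 were higher (37.5%, beside 18.4%). With SLC30A1 these were SLC30A4, an exporter of vesicles, and SLC30A10, a manganese exporter of the cell surface. SLC30A4 was at 20.3, 20.7 and 19.9 CPM in control and at 35.3 and 38.2 CPM in co-cultured cells, far apart, with a log2 fold change of 0.86 (adjusted p = 0.000270). SLC30A10 had 13, 13 and 16 counts in control and 44 and 18 after co-culture, and its log2 fold change was 1.28 (adjusted p = 0.0277), with co-cultured replicate 2 near the control libraries. The number of higher exporters was 6 without control replicate 1 and 1 without co-cultured replicate 1. SLC30A3, the vesicle transporter of glutamatergic neurons, had a log2 fold change of -1.10, with an unadjusted p of 0.0336 and an adjusted p of 0.0839.

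Of the 14 SLC39A genes listed, 10 were tested, with a median log2 change of 0.27. Of these, none was lower (beside 15.0% of all genes tested) and 3 were higher (30%, beside 18.4%). SLC39A14, an importer of zinc, iron and manganese, rose by 0.48 on the log2 scale (adjusted p = 0.00733). SLC39A8, its close relative, rose by 0.67 (adjusted p = 0.00911), and SLC39A9, a transporter of the Golgi, rose by 0.35 (adjusted p = 0.0157). SLC39A3 did not pass the test, at 0.30 on the log2 scale (adjusted p = 0.0584). The number of higher importers was 6 without control replicate 1 and 1 without co-cultured replicate 1, and also 1 without co-cultured replicate 2. Over both families, 6 of the 18 genes tested were higher, a share of 33.3% beside the 18.4% of all genes tested. No member of either family had an adjusted p under 0.05 in the lower direction by edgeR or DESeq2, and 1 had an unadjusted p under 0.05 by edgeR, SLC30A3. Under the laxest filter (1 count anywhere), and without control replicate 1, 1 exporter was lower. SLC39A7 was listed at 0 in every library, and also at 0 on the opposite strand. A 0 need not mean absence, since reads that map to several places are not counted, and this was not tested.

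**Figure D4:**
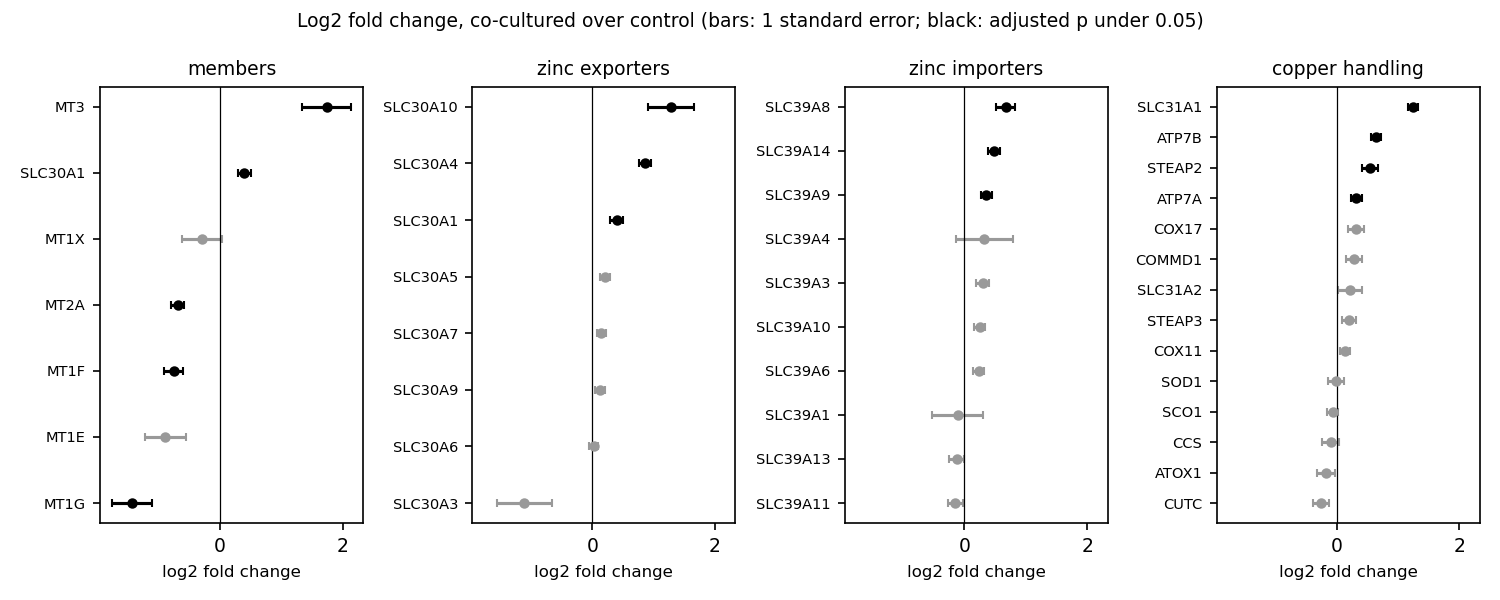
Log2 fold change between co-cultured and control cells (positive: higher in co-cultured) for the members tested and the tested genes of the SLC30A, SLC39A and copper lists, 1 panel each, with bars of 1 standard error and black points for an adjusted p under 0.05. In the panels of the 3 lists 3, 3 and 4 genes are past the threshold, all to the right of 0. In the panel of members MT3 and SLC30A1 are past it to the right, and MT2A, MT1F and MT1G to the left.

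Metallothioneins also bind copper, and of 16 genes of copper handling 14 were tested, 4 were higher, a share of 28.6% beside the 18.4% of all genes tested, and none was lower by edgeR or DESeq2, beside 15.0% of all genes tested. The median log2 change was 0.21, and 0 copper genes were lower at an unadjusted p under 0.05 by edgeR. Without co-cultured replicate 1, 2 copper genes were higher, and without control replicate 1, 6 were higher and 1 was lower. SLC31A1, the main copper importer of the cell surface, was at 47.4, 44.1 and 42.6 CPM in control and at 110.5 and 100.3 CPM in co-cultured cells. Each co-cultured library was far above each control library, with a log2 fold change of 1.24 (adjusted p = 3.85e-05). ATP7B and ATP7A, the copper-exporting ATPases, rose by 0.64 (adjusted p = 0.000532) and 0.32 (adjusted p = 0.0182) on the log2 scale. STEAP2, a metalloreductase, rose by 0.54 (adjusted p = 0.00978).

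Glucocorticoids and cell stress are the other known inducers of metallothioneins. Of 10 glucocorticoid-responsive genes, all tested, 5 were higher (50%, beside 18.4% of all genes tested) and 1 was lower (10%, beside 15.0%), and the median log2 change was 0.61. TSC22D3, a glucocorticoid-induced leucine zipper protein, was at 19.5, 17.9 and 15.4 CPM in control and at 96.4 and 85.7 CPM in co-cultured cells (log2 fold change 2.37, adjusted p = 1.06e-05). ERRFI1, an inhibitor of the EGF receptor, rose by 3.19 on the log2 scale (adjusted p = 4.99e-05), and SGK1, a serum- and glucocorticoid-induced kinase, rose by 2.23 (adjusted p = 0.000183). NR3C1, the glucocorticoid receptor, rose by 1.05 (adjusted p = 0.000104). CRISPLD2, a secreted protein, was the 1 that fell, at -0.52 on the log2 scale (adjusted p = 0.0209), and FKBP5, PER1, ZBTB16 and DUSP1 did not pass the test, with values from 0.20 to 0.52. The part of the HBMEC medium in the values of these genes was not tested. Of 12 genes of heat shock and oxidative stress, 9 were tested, 3 were higher (33.3%, beside 18.4% of all genes tested) and 1 was lower (11.1%, beside 15.0%), and the median log2 change was 0.01. HSPB1, a small chaperone, rose by 0.85 (adjusted p = 0.00882), NQO1, a quinone reductase, rose by 1.03 (adjusted p = 0.0105), and GCLM, the partner of GCLC, rose by 0.48 (adjusted p = 0.0155). HSPA8, the constitutive chaperone, fell, at -0.72 on the log2 scale (adjusted p = 0.0238). HSPA1A and HSPA1B were among the genes not tested, at 0 counts in every library, with the same limit as SLC39A7.

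Among 9884 protein-coding genes with a mean of at least 10 CPM, those whose log2 CPM over the 5 libraries, centred on the control mean, lay nearest to MT2A by Euclidean distance were KIF22 (0.075), PEX5 (0.085), ARHGEF39 (0.094), GOLIM4 (0.095) and USP11 (0.096). Those nearest to SLC30A1 were BRPF3 (0.053), TMEM184C (0.066), LYST (0.075), DLD (0.076) and TIMM17A (0.076). None of these 10 genes is a metallothionein or a zinc transporter. Over 5 libraries of 2 groups such a likeness mostly follows the size of the group difference, and it is given as a description with no test.

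**Figure D5:**
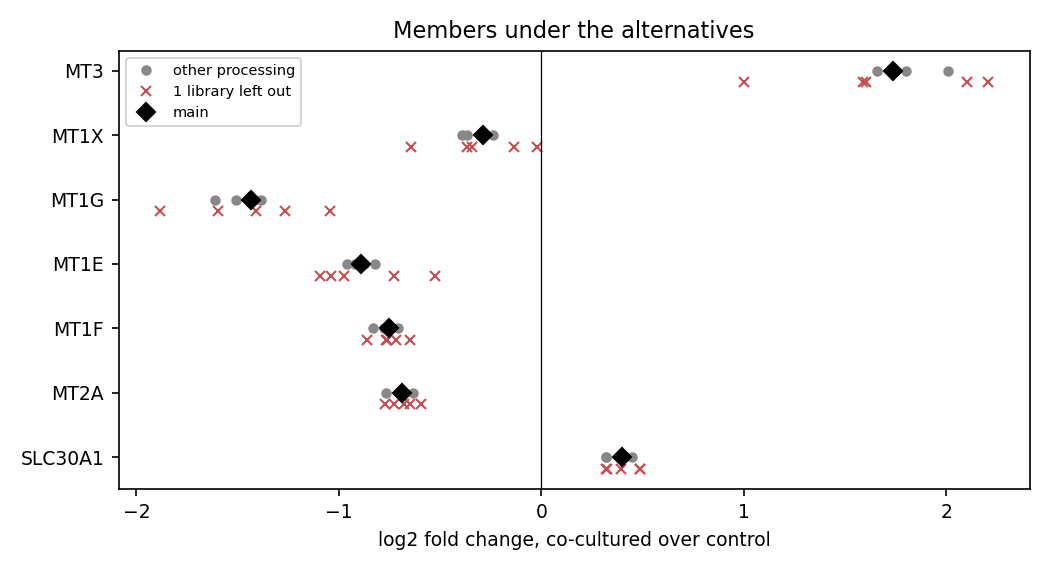
Log2 fold change between co-cultured and control cells (positive: higher in co-cultured) for the 7 members tested, with diamonds for the value reported, grey points for other processing and red crosses for 1 library left out. MT2A stays between -0.77 and -0.59, whereas MT3 runs from 1.0 to 2.21 and MT1G from -1.88 to -1.05.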

How the data were processed

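RNA-Seq of rRNA-depleted RNA from 5 NCI-H209 libraries was analysed, made with a directional kit. The authors deposited, for each library a table of raw gene counts as STAR writes it. The submitters' processing notes name CASAVA 1.8, STAR 2.6.1b, DESeq2 and GRCh38. The column of the strand expected for the kit was used, which held 92.3% to 93.1% of the reads on genes. Rows that name no gene were left out, among them unmapped reads (8.13% to 16.8% of all reads), reads mapping to several places (7.05% to 7.75%), reads outside genes (40.1% to 51.2%) and reads of overlapping genes (2.55% to 2.89%). A further table, on the comparison, was deposited with a normalized signal (mean of scaled counts) and was used here for gene names. Its columns of log2 fold change, standard error, statistic and p-values were not used. It named 9 of the 10 members, and MT1A was matched by its symbol in GENCODE 29.

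The default filter on low counts in edgeR 4.0.16 (filterByExpr, run in R 4.3.3) left 20360 genes. These were scaled by TMM and compared with edgeR's two-sided quasi-likelihood test, and p-values were adjusted by Benjamini-Hochberg. The biological coefficient of variation was 10.2%. Each standard error was derived from the F statistic, as log2 fold change over its square root. CPM uses TMM-scaled totals. Replicates differed from each other beyond counting noise (chi-square per degree of freedom 4.19 to 16.1). A change of 1 on the log2 scale was called for 66 of 100 genes, and of 2 for 90 of 100, when simulated in this comparison over 20360 genes, together with 20 unchanged genes. The p-values of single ratios are from exact permutation tests in scipy 1.17.1. Intervals for shares are exact (Clopper-Pearson). Coding sequences and coordinates are from GENCODE 29 and promoters from RefSeq.

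All 10 members are named. From each of the lists of related genes, the up to 4 genes with the smallest p are named, together with MTF1. Markers of neuroendocrine and endothelial cells, SLC39A7, HSPA1A, HSPA1B and AC026461.1 were named after their values were seen. The members and lists were chosen with earlier results of these data known, and the lists were written from general knowledge. The alternatives were scaling by upper quartiles or median ratios, DESeq2 1.42.0, a laxer filter (1 count in any library) and a stricter one (10 counts in all libraries), unstranded counts, a replicate block, and each library left out. Length from the principal transcript was added after the data were seen. CRISPLD2, FKBP5, PER1, ZBTB16 and DUSP1 were also named after their values were seen. Some results on single genes and sequences are not reported here. Plots were drawn with matplotlib 3.10.9.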

Additional observations from a re-analysis of the deposited data

How the results depend on the processing

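All 7 members tested kept their direction under the 12 alternatives, and MT2A kept its call under each of them. MTF1 turned from 0.08 to -0.001 with upper-quartile normalization (adjusted p = 0.993). The filter of at least 1 count in any library gave 5 lower members, MT2A, MT1F, MT1G, MT1E and MT1H (adjusted p = 0.0119), and 1 lower zinc exporter. With a replicate block 1 member was higher, since SLC30A1 had a log2 fold change of 0.32 and an adjusted p of 0.0857, and 4 were lower, MT1E with an adjusted p of 0.0410. Libraries with the same number did not deviate together (r = -0.146 and -0.082 over genes for the 2 pairs). With only 2 co-cultured libraries these deviations mirror each other, so the values cannot show whether the numbers pair the libraries. The labels state no pairing.

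With 1 library left out, 1749 to 5295 of all genes were higher and 985 to 4602 lower, 0 to 2 members were higher and 2 to 4 lower, 1 to 6 zinc exporters were higher and 0 to 1 lower, 1 to 6 zinc importers were higher and 0 lower, and 2 to 6 copper genes were higher and 0 to 1 lower. Co-cultured replicate 1 left out gave the low ends and control replicate 1 left out gave most of the high ends, and the cause was not tested. With 1 co-cultured library left, it is assumed to vary like the controls. The summed metallothionein level had a log2 ratio of -0.69 to -0.54 under the other scalings, unstranded counts and each library left out, the alternatives computed for it. MT1A, MT1H and MT1M had too few counts to be tested with all 5 libraries under the default filter. MT1H passed that filter when either co-cultured library was left out. Its log2 fold change was then -1.43 without co-cultured replicate 1 and -6.38 without co-cultured replicate 2. The latter rests on a co-cultured library with 0 counts of MT1H.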
